A study of Mus musculus with 31 samples.

Results

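The collagen chains are the polypeptides that wind together, in threes, into the triple helix of each collagen type. Genes were taken as collagen chains where the platform symbol reads Col, a type number, the letter a and a chain number, on probe sets with 1 symbol. The rule found 42 genes among the 18194 genes measured, on 82 probe sets, and for each gene the probe set brightest on average across the 31 arrays is read here. By class they are 11 fibrillar chains, 6 chains of the type IV network, 5 type VI chains, 4 chains of the basement membrane zone (types VII, XV, XVII and XVIII), 9 fibril-associated chains, 3 short-chain network chains (types VIII and X), 3 further membrane-spanning chains and Col26a1.

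Affymetrix arrays recorded RNA levels in mouse iPSCs (induced pluripotent stem cells) at day 0 and in the embryoid bodies grown from them at day 11. Embryoid bodies are aggregates in which such cells differentiate without an imposed lineage. Control cells came from wild type CD1 mice (10 arrays at day 0 and 9 at day 11), and Nos3-/- cells came from the strain B6.129P2-Nos3tm1unc/J (6 arrays on each day). All 4 groups descend from tail-tip fibroblasts of adult males reprogrammed with Sendai virus, all were kept on inactive mouse embryonic fibroblast feeders while pluripotent, and day 11 bodies were formed in AggreWell plates. The labels do not say whether feeders were removed before RNA was taken. Day 0 levels are therefore read as those of whole cultures. Nos3 encodes endothelial nitric oxide synthase. Genotype and strain cannot be told apart in this design. The labels do not say how many iPSC lines, cultures or animals stand behind the arrays, so every p-value measures the spread between arrays, which may be technical. The number of arrays limits the precision.

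Fibrillar collagens (types I, II, III, V, XI, XXIV and XXVII) form the load-bearing fibrils of connective tissue and cartilage. Type IV forms the meshwork of basement membranes, type VI forms beaded filaments around cells, and fibril-associated collagens decorate fibrils. Fibroblasts are a main source of types I, III, V and VI, and parietal endoderm of the early embryo lays down a thick basement membrane rich in type IV.

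Pluripotency genes were read as a check of the labelled cell type. Pou5f1, the central pluripotency factor, lay between 11.55 and 12.99 on the log2 scale on all day 0 arrays. Its mean at day 11 was 11.66 ± 0.43 (SD, n = 9) in control and 12.37 ± 0.32 (n = 6) in Nos3-/-, a difference of 0.71 (SE 0.19, limma adjusted p = 0.0143). Of 10 pluripotency markers, 3 were higher in Nos3-/- at day 0 and 6 at day 11, beside 9.17% and 4.41% of all genes. Their part in the collagen differences was not tested. Nos3 itself differed by 0.33 (SE 0.11, limma adjusted p = 0.0295) at day 0 and by -0.17 (SE 0.11, adjusted p = 0.386) at day 11. No source used here places its probe set inside or outside the disrupted part of the gene, and this does not check the labels. The median correlation of an array with its group was lowest for Nos3-/- day 11 replicate 3 (0.961), Nos3-/- day 0 replicate 3 (0.975) and Nos3-/- day 0 replicate 5 (0.976).

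Mean levels of cell type marker lists differed between the groups. The mean log2 level of 17 measured fibroblast or feeder markers, a list without collagens, was 9.54 ± 0.41 (range 8.63 to 10.06) in control and 8.99 ± 0.46 (8.39 to 9.58) in Nos3-/- at day 0. At day 11 it was 8.06 ± 0.41 (7.39 to 8.50) in control and 7.19 ± 0.35 (6.73 to 7.67) in Nos3-/-. Of these 17 markers, 2 were lower in Nos3-/- at day 0, and 1 was higher and 7 lower at day 11. Over all genes, 9.17% were higher and 7.47% lower at day 0, and 4.41% higher and 5.29% lower at day 11. The mean of 12 parietal endoderm markers was 9.12 ± 0.37 (8.73 to 10.1) in control and 8.29 ± 0.44 (7.97 to 9.09) in Nos3-/- at day 0, and 9.70 ± 0.79 (8.97 to 11.4) and 8.55 ± 0.56 (7.47 to 9.03) at day 11. Of 10 visceral endoderm markers 8 were lower in Nos3-/- at day 11 (median change -2.39), where the list mean was 9.47 ± 1.59 (7.36 to 12.01) in control and 7.02 ± 0.66 (5.78 to 7.46) in Nos3-/-. At day 0 the list means were 6.39 ± 0.68 and 6.07 ± 0.20. The part of visceral endoderm in the day 11 collagen differences was not tested. In RNA of whole cultures, fewer cells of a type and less RNA per cell cannot be told apart. None of the defining markers can be read as absent, because the deposited values carry no detection call.

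Promoter sequences are shown for a few collagen genes described below, picked by hand and not by a rule. Of the 42 genes, 33 have a promoter window in RefSeq (GRCm38.p6), and the 250 bases before the start were searched on both strands for the motif CCAAT, which reads ATTGG on the other strand, for GGGCGG, which reads there as CCGCCC, and for TATAAA, which reads there as TTTATA. No motif contains another. The first, the CCAAT box, is a known element of type I collagen promoters, and the second is the GC box read by Sp1. Capitals mark the matches, and each sequence runs 5′ to 3′ on the strand of its gene.
Col4a2, chr8:11312755-11312784, + strand: cgCCGCCCgaggagctccCCAATttgttgg
Col1a2, chr6:4505368-4505617, + strand: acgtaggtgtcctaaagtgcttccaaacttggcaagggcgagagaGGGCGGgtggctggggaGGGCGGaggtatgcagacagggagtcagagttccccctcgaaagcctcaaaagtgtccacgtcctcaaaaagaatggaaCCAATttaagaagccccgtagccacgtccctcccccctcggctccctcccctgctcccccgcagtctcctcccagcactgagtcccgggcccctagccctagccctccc
Col5a1, chr2:27886175-27886424, + strand: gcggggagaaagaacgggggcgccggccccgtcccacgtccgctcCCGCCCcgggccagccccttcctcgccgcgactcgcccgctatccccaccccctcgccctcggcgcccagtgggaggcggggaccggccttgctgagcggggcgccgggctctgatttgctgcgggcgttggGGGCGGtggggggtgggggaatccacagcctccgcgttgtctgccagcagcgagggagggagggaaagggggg
Col5a3, chr9:20815068-20815317, - strand: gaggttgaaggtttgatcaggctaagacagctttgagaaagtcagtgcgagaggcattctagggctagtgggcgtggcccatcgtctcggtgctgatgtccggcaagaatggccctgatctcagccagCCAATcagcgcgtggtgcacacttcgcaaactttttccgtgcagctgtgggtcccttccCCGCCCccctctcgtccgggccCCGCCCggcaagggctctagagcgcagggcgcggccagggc
Col3a1, chr1:45311288-45311537, + strand: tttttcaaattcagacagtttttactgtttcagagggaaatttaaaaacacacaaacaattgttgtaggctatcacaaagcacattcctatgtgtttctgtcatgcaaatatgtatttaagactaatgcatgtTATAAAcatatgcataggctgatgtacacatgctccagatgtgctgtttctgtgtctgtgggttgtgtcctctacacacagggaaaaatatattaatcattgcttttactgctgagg
Col9a1, upstream start, chr1:24177360-24177609, + strand: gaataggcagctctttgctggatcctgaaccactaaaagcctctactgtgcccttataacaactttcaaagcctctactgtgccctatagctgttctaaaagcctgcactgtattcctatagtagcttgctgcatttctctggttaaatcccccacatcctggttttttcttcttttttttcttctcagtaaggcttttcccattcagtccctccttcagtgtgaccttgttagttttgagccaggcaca
Col9a1, downstream start, chr1:24194953-24195202, + strand: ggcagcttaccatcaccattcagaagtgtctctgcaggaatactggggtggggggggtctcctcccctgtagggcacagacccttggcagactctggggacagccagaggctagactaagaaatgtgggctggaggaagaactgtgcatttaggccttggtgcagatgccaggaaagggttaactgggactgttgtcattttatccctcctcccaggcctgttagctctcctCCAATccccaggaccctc

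The short Col4a2 stretch is shown because Col4a1 and Col4a2 are transcribed away from each other, on opposite strands, from starts 21 bases apart. It lies before the Col4a2 start and, because the transcripts overlap at their starts, inside the transcribed part of Col4a1, whose own window holds another match, ATTGG, 145 bases before its start. Col4a5 and Col4a6 are arranged head to head on the X chromosome as well, with starts 1343 bases apart. A CCAAT box was in the windows of 13 of the 33 genes (39.4%, against 33.9% of 32851 mouse promoter windows), a GC box in 20 (60.6% against 32.7%) and TATAAA in 5 (15.2% against 12.4%). These matches describe letters and do not show binding.

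Changes were taken from 1 limma fit of all arrays, and passing means an adjusted p under 0.05 by the Benjamini-Hochberg method over all 18194 genes. At day 0, limma called 13 of 42 collagen genes lower in Nos3-/- and 0 higher, beside 16.6% of all genes called, 9.17% higher and 7.47% lower. At an unadjusted p under 0.05, 18 were lower and 0 higher. The share of all genes at that unadjusted threshold was not counted. The median difference was -0.33 on the log2 scale over the 42 genes and 0.01 over all genes. The number fell to 6 without Nos3-/- day 0 replicate 2 or without replicate 5. All 13 were among the 25 collagen genes above the lower tertile of mean level over all genes. For 0 of the 42 did the 2 genotypes fail to overlap (1.92% of all genes), so the ranges of the 2 genotypes overlapped for every collagen gene at this stage.

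At day 11, 7 collagen genes were lower and 1 was higher in Nos3-/-, beside 9.7% of all genes called, 5.29% lower and 4.41% higher. At an unadjusted p under 0.05, 11 were lower and 5 higher, again without a count over all genes. The median difference was -0.09. Genotypes did not overlap for Col1a1 and Col5a2 (2 of 42, against 2.6% of all genes). Col1a1, Col5a1, Col5a2 and Col27a1 were lower on both days, which is 30.8% of the 13 and 57.1% of the 7. Every one of these 4 is a fibrillar chain, as were 6 of the 13 and 5 of the 7. The share of all genes lower on both days was not counted. The overlap is therefore not read as particular to collagens.

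From day 0 to day 11 in control, 7 collagen genes rose and 13 fell, beside 34.2% of all genes called, 16% higher and 18.2% lower, and 7 of the 42 had separate ranges (6.52% of all genes). In Nos3-/- 8 rose and 11 fell, beside 31.1% called, 13% higher and 18.1% lower, and 5 had separate ranges (7.83% of all genes). In both genotypes the genes that fell included Col1a2, Col5a2, Col5a3, Col6a1, Col6a2, Col6a3, Col8a1, Col12a1 and Col16a1, which are 9 genes (69.2% of the 13 and 81.8% of the 11). Col4a1, Col4a6, Col13a1 and Col20a1 rose in both (4 genes, which is 57.1% of the 7, out of 8 in Nos3-/-). Of the collagen genes called in both genotypes, 0 moved in opposite directions. Sharing between genotypes was not counted over all genes, so these overlaps are not read as particular to collagens.

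**Figure D1:**
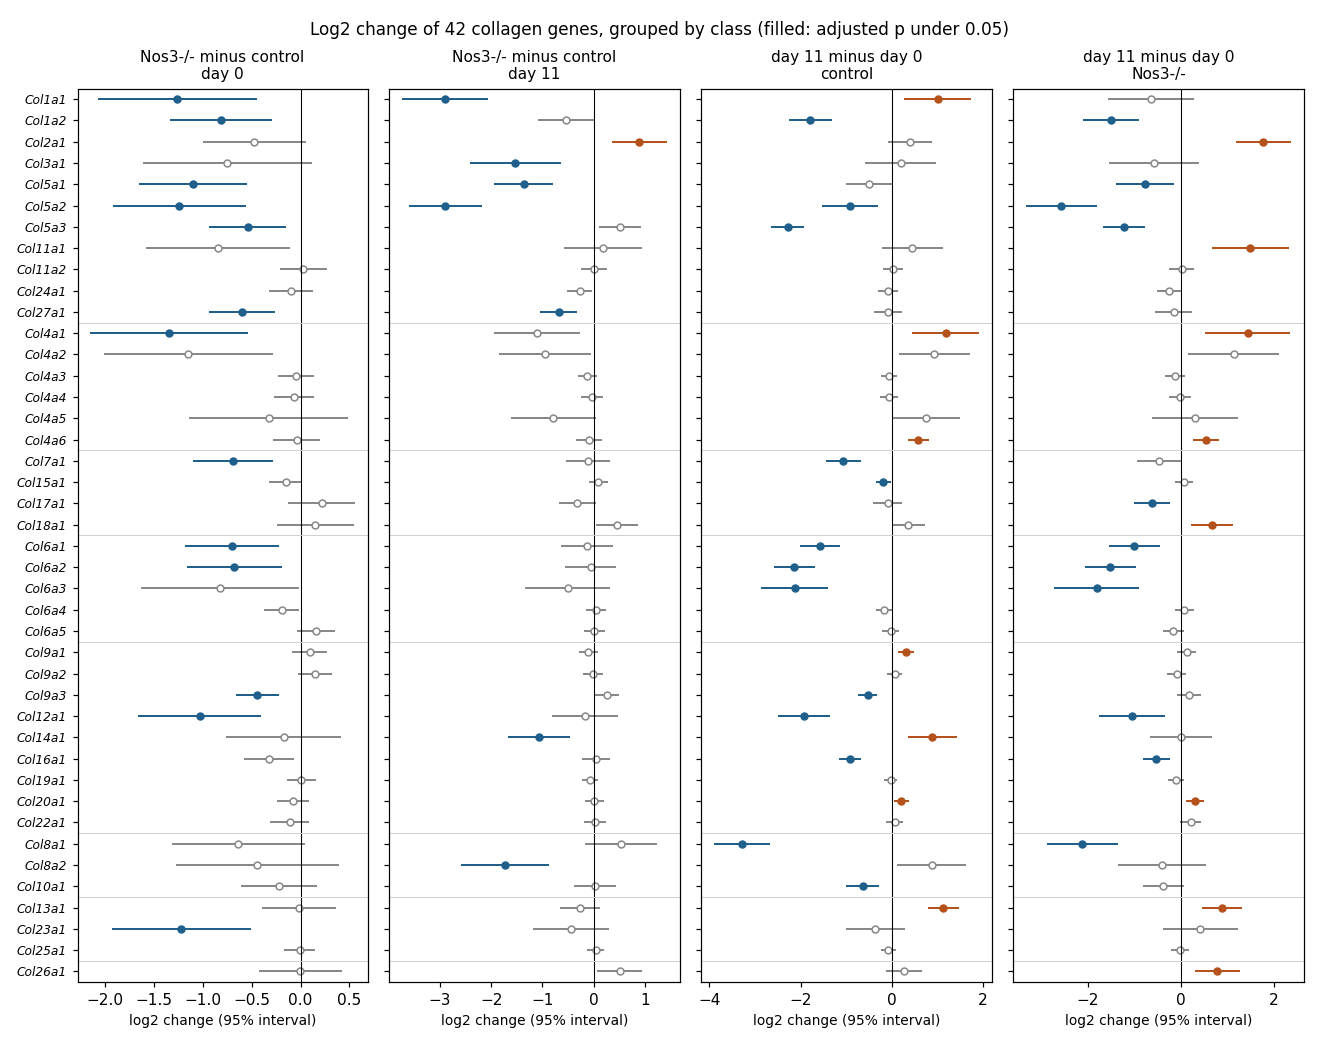
Each row is a collagen gene and each panel a comparison; the x axis is the log2 change with its 95% interval, and grey lines separate the classes in the order fibrillar, type IV, basement membrane zone, type VI, fibril-associated, types VIII and X, membrane-spanning and Col26a1. Filled points passed at an adjusted p under 0.05: at day 0 all 13 of them lie left of 0, and at day 11 Col1a1 (-2.91) and Col5a2 (-2.89) lie farthest from it. The x axes differ in range between panels.

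Type I collagen, the main protein of skin, tendon and bone, is built from the products of Col1a1 and Col1a2. Col1a1 at day 0 ran from 9.32 to 11.60 (median 10.09) in control and from 8.21 to 9.42 (median 9.15) in Nos3-/-. On 5 of the 6 Nos3-/- arrays it lay below the lowest control array. The difference was -1.26 (SE 0.39, 2.39-fold lower, limma adjusted p = 0.0269). At day 11 Col1a1 ran from 9.94 to 12.23 (median 11.26) in control and from 7.19 to 9.67 (median 8.24) in Nos3-/-, and all 6 Nos3-/- arrays lay below every control array. The difference was -2.91 (SE 0.40, 7.52-fold lower, adjusted p = 6.7e-06).

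Col1a2, the partner chain, differed less at day 11. At day 0 it ran from 12.35 to 14.11 (median 13.46) in control and from 12.13 to 12.97 (median 12.67) in Nos3-/-, a difference of -0.82 (SE 0.25, adjusted p = 0.0248). At day 11 the ranges were 10.70 to 12.47 and 10.69 to 11.53, with a difference of -0.54 (SE 0.26, 95% interval -1.06 to -0.02, adjusted p = 0.213). Over time Col1a2 fell by 1.79 in control (SE 0.22, adjusted p = 2.91e-07) and by 1.51 in Nos3-/- (SE 0.28, adjusted p = 0.000203). Col1a1 rose by 1.00 over time in control (SE 0.35, adjusted p = 0.0257), and its change in Nos3-/- was -0.65 (SE 0.44, adjusted p = 0.274). The second Col1a1 probe set gave -0.21 (SE 0.28) over time in control, so that rise rests on the probe set used.

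Type V collagen sits inside type I fibrils and sets where fibrils start and how thick they become. Col5a2 at day 0 ran from 11.42 to 13.20 (median 12.03) in control and from 10.34 to 11.56 (median 11.11) in Nos3-/-, with 5 of 6 Nos3-/- arrays below every control array. The difference was -1.24 (SE 0.33, adjusted p = 0.0104). At day 11 control arrays kept to 10.88 to 11.93 (median 11.32) while Nos3-/- arrays spread from 6.61 to 9.84 (median 8.62). This was a difference of -2.89 (SE 0.33, 7.43-fold lower, adjusted p = 3.52e-07) with no overlap. The other Col5a2 probe set was lower as well, by -1.69 (SE 0.28) at day 0 and by -3.34 (SE 0.28) at day 11.

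Col5a1, the other common type V chain, was lower by -1.10 (SE 0.27, adjusted p = 0.00525) at day 0 and by -1.37 (SE 0.27, adjusted p = 0.000877) at day 11. Its day 11 values ran from 9.82 to 11.25 (median 10.60) in control and from 8.55 to 9.85 (median 9.31) in Nos3-/-, so 5 of 6 Nos3-/- arrays lay below the lowest control array. Col5a3, a chain found in a subset of type V molecules, took another course. At day 0 it was lower by -0.54 (SE 0.19, adjusted p = 0.0465), and at day 11 Nos3-/- arrays (5.83 to 6.25, median 6.07) stood at the upper end of control (5.18 to 5.93, median 5.56), with a difference of 0.51 (SE 0.19, adjusted p = 0.0925). Over time it fell by 2.28 in control and by 1.23 in Nos3-/-, and this difference between genotypes passed (1.05, SE 0.27, adjusted p = 0.0451). In the interaction, 2 collagen genes were higher and 0 lower, beside 1.24% of all genes called, 0.522% higher and 0.715% lower. At an unadjusted p under 0.05, 7 were higher and 5 lower, and all genes were not counted at that threshold. The interaction call of Col5a3 was lost on leaving out many single arrays. Without Nos3-/- day 0 replicate 5, for example, the value was 0.95 (limma adjusted p = 0.104).

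Type III collagen, of reticular fibres and vessel walls, is made of Col3a1 chains only. Col3a1 at day 11 ran from 9.39 to 13.43 (median 12.3) in control and from 9.55 to 11.23 (median 10.53) in Nos3-/-. Control replicate 1, at 9.39, was the lowest of all, and the other 8 control arrays lay above every Nos3-/- array. The difference was -1.53 (SE 0.43, adjusted p = 0.0181), and it was -1.34 (adjusted p = 0.065) without Nos3-/- replicate 5. At day 0 it was -0.75 (SE 0.42, adjusted p = 0.227). Col3a1 and Col5a2 are neighbours on chromosome 1.

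Col27a1, a fibrillar chain of developing cartilage, was lower by -0.60 (SE 0.16, adjusted p = 0.0113) at day 0 and by -0.68 (SE 0.16, adjusted p = 0.00557) at day 11. Its day 11 range was 7.71 to 8.06 (median 7.79) in Nos3-/- and 7.84 to 9.00 (median 8.39) in control. Col27a1 kept its call at day 0 whichever single array was left out, as did Col5a1, Col5a2 and Col9a3 and no other of the 13.

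Col2a1, the chain of type II collagen of cartilage and notochord, was the only collagen gene called higher in Nos3-/-. At day 11 it ran from 7.17 to 9.30 (median 8.60) in Nos3-/- and from 6.86 to 8.26 (median 7.51) in control, with 4 of 6 Nos3-/- arrays above every control array. The difference was 0.90 (SE 0.26, adjusted p = 0.0223), which became 0.75 (adjusted p = 0.0814), 0.74 (0.0798) and 0.85 (0.0517) without Nos3-/- replicate 1, 2 or 6. Over time Col2a1 rose by 1.77 in Nos3-/- (SE 0.28, adjusted p = 3.58e-05), while its change in control was 0.40 (SE 0.22, adjusted p = 0.174). The difference between these changes was 1.37 (SE 0.36, adjusted p = 0.0508). It passed without Nos3-/- day 11 replicate 3 (1.64, adjusted p = 0.00491).

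Col11a1, which joins type II fibrils, rose by 1.49 over time in Nos3-/- (SE 0.40, adjusted p = 0.00536). Its change in control was 0.45 (SE 0.32, adjusted p = 0.28). Between genotypes Col11a1 differed by -0.84 (SE 0.35, adjusted p = 0.101) at day 0 and by 0.19 (SE 0.36, adjusted p = 0.842) at day 11. Its other probe set was lower in Nos3-/- at day 0, by -1.35 (SE 0.40, limma adjusted p = 0.0209). Of 10 cartilage markers, 1 was lower in Nos3-/- at day 11, beside 5.29% of all genes, and the others did not pass. Of the 8 notochord markers listed, 6 were measured (Shh, Foxa2, Krt8, Krt18, Krt19 and Chrd), without T and Noto. At day 0, 2 of the 6 were lower in Nos3-/- (median difference -0.93), beside 7.47% of all genes. None of the 6 passed at day 11 (median difference 0.16) or in the limma interaction. All 6 interaction values were positive, from 0.54 to 1.70 with a median of 1.32. Their median change over time was 1.07 in Nos3-/- and -0.25 in control. The list mean in Nos3-/- was 9.30 ± 1.13 (7.34 to 10.67) at day 0 and 10.38 ± 0.75 (8.89 to 10.87) at day 11. In control it was 10.22 ± 0.40 and 10.09 ± 0.36. Shh, the signal secreted by notochord, rose by 2.88 in Nos3-/- and by 1.37 in control. Its difference at day 11 was the most positive of the 6, at 1.28 (SE 0.52, limma adjusted p = 0.127). The level of Acan, the cartilage proteoglycan, was 5.28 ± 0.25 in control and 5.33 ± 0.19 in Nos3-/- at day 11. Hapln1, also of the cartilage list, went over time from 3.46 ± 0.13 to 7.54 ± 1.24 in control. In Nos3-/- it went from 3.45 ± 0.09 to 7.42 ± 1.44. Of the 10 cartilage markers, 3 were higher over time in control, beside 16% of all genes. In Nos3-/- 2 were higher and 2 lower over time, beside 13% and 18.1% of all genes. The part of cartilage or notochord cells in the Col2a1 result was not tested. The remaining fibrillar chains, Col11a2 and Col24a1, passed in no comparison.

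**Figure D2:**
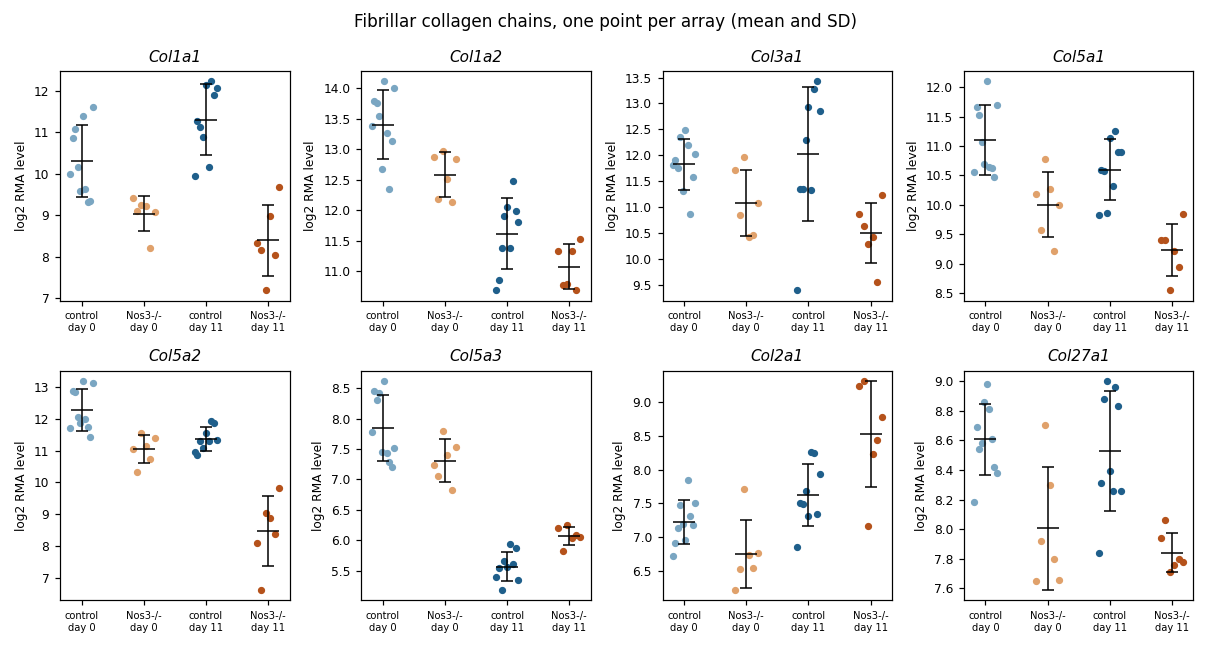
Log2 level of 8 fibrillar chains on each array (points), with the mean and SD of each group; groups are control and Nos3-/- at day 0 and day 11. For Col1a1 and Col5a2 all Nos3-/- day 11 arrays lie below the control day 11 arrays, while 4 of 6 lie above them for Col2a1. The y axes differ between genes and levels of different genes are not compared.

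The mean of the 17 fibroblast markers was also lower in Nos3-/- on both days. The fit was repeated with this mean as a covariate, within the arrays of each day. The covariate itself differed between genotypes and holds matrix genes, so these values do not measure a share that fibroblasts account for. At day 0 the same arrays without the covariate gave 11 lower collagen genes, and with it 0. The share of all genes called in these fits was not counted, so the drop is not read as particular to collagens. Genes differed in how far the estimate moved. Col3a1 went from -0.75 to -0.08 (SE 0.11), Col6a1 from -0.70 to -0.12 (SE 0.18) and Col1a2 from -0.82 to -0.33 (SE 0.20). Col1a1 went to -0.81 (SE 0.38), Col5a1 to -0.76 (SE 0.30) and Col5a2 to -0.94 (SE 0.32). Col4a1 stayed at -1.28 (SE 0.40, adjusted p = 0.116), Col23a1 at -1.32 (SE 0.42, adjusted p = 0.123) and Col27a1 at -0.58 (SE 0.19, adjusted p = 0.136).

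At day 11 the same arrays without the covariate gave 5 lower collagen genes (Col1a1, Col5a1, Col5a2, Col8a2 and Col27a1) and 1 higher, Col5a3 (0.51, SE 0.11, adjusted p = 0.00734). In that fit of fewer arrays Col3a1 (adjusted p = 0.0883), Col14a1 (0.0882) and Col2a1 (0.0761) did not pass. With the covariate 1 was lower, Col5a2 at -1.65 (SE 0.38, adjusted p = 0.0385). Here too the share of all genes called in these fits was not counted. Col1a1 went from -2.91 to -1.49 (SE 0.45, adjusted p = 0.117), and Col3a1 from -1.53 to 0.38 (SE 0.52). The estimates of 15 of the 42 genes changed sign, among them Col6a3 (-0.51 to 1.3), Col1a2 (-0.54 to 0.30) and Col4a5 (-0.78 to 0.17), against 2 of 42 at day 0. With the covariate 2 genes were higher, Col8a1 at 1.63 (SE 0.36, adjusted p = 0.0297) and Col12a1 at 0.96 (SE 0.20, adjusted p = 0.0237). Of the 17 markers of this list, 1 was higher and 7 were lower in Nos3-/- at day 11, beside 4.41% and 5.29% of all genes. Postn (-3.76), Lum (-3.23) and Dcn (-1.55), which are also matrix genes, were among the lower ones. S100a4 went the other way, with a mean of 7.73 ± 0.92 in control and 9.47 ± 1.55 in Nos3-/-. Thy1 stood at 6.52 ± 0.59 and 7.19 ± 0.80.

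The type IV network begins with Col4a1 and Col4a2, which form the molecule found in all basement membranes. Col4a1 at day 0 ran from 10.08 to 12.14 (median 11.13) in control and from 8.68 to 10.73 (median 9.79) in Nos3-/-, with 4 of 6 Nos3-/- arrays below every control array. The difference of -1.34 (SE 0.39, adjusted p = 0.0187) was the most negative of the 42, and without Nos3-/- replicate 2 it was -1.13 (adjusted p = 0.0684). At day 11 the ranges were 11.09 to 14.06 (median 11.87) and 9.46 to 11.75 (median 11.46), a difference of -1.10 (SE 0.40, 95% interval -1.92 to -0.29, adjusted p = 0.0809). Over time Col4a1 rose by 1.19 in control (SE 0.35, adjusted p = 0.00885) and by 1.43 in Nos3-/- (SE 0.44, adjusted p = 0.0143).

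Col4a2 gave differences of like size on both days, -1.15 (SE 0.42, adjusted p = 0.058) and -0.95 (SE 0.43, adjusted p = 0.184), and passed in no comparison. Its highest array was control day 11 replicate 4, at 13.22, where Col4a1 also had its maximum of 14.06 and the parietal endoderm markers theirs of 11.4. The lowest Nos3-/- day 11 array for both chains was replicate 3 (9.46 for Col4a1 and 8.25 for Col4a2), where the parietal marker mean was 7.47. The part of parietal endoderm in these differences was not tested.

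The other type IV chains are more restricted in tissue. Col4a6 rose over time by 0.58 in control (SE 0.10, adjusted p = 2.97e-05) and by 0.54 in Nos3-/- (SE 0.12, adjusted p = 0.0016), from 5.44 ± 0.13 to 6.02 ± 0.23 in control. Col4a5, its neighbour, had wide ranges (6.44 to 8.82 in Nos3-/- and 7.75 to 10.09 in control at day 11) and did not pass. Col4a3 and Col4a4, of the adult kidney filter, lay at 5.08 to 5.25 and 4.02 to 4.12 in the means of the 4 groups and did not pass.

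Type VI chains make one molecule from Col6a1, Col6a2 and Col6a3 in connective tissue. At day 0 Col6a1 was lower by -0.70 (SE 0.23, adjusted p = 0.0361) and Col6a2 by -0.68 (SE 0.23, adjusted p = 0.0435), and Col6a3 differed by -0.82 (95% interval -1.62 to -0.03) without passing. Both calls were lost when single arrays were left out, and without Nos3-/- replicate 5 the differences were -0.52 (adjusted p = 0.163) and -0.51 (adjusted p = 0.184). At day 11 the differences of Col6a1 and Col6a2 were -0.13 (95% interval -0.61 to 0.35) and -0.06 (-0.54 to 0.43).

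Over time all 3 of these chains fell in both genotypes. Col6a2 went from 10.11 ± 0.58 to 7.97 ± 0.35 in control and from 9.43 ± 0.55 to 7.91 ± 0.28 in Nos3-/-, without overlap between days in either genotype. The changes were -2.14 (SE 0.21, adjusted p = 2.91e-09) and -1.52 (SE 0.26, adjusted p = 8.36e-05). Col6a3 changed by -2.13 in control and -1.81 in Nos3-/-, and Col6a1 by -1.58 and -1.01. Col6a4 and Col6a5 passed in no comparison. In the same span the fibroblast list had 3 members higher and 10 lower in control, and 14 lower in Nos3-/-, of 17. Over all genes, 16% were higher and 18.2% lower in control, and 18.1% lower in Nos3-/-. The part of feeder cells in the falls of collagen genes over time was not tested.

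Types VIII and X form hexagonal lattices, type VIII under endothelium. Col8a1 ran from 9.23 to 11.27 (median 10.5) at day 0 and from 6.57 to 7.51 (median 7.37) at day 11 in control. This was a fall of 3.29 (SE 0.29, 9.77-fold, adjusted p = 5.02e-10), the largest change of any collagen gene in the 4 comparisons of 2 groups on the probe sets used (second probe sets of Col9a1 and Col5a2 changed by more). In Nos3-/- it fell by 2.12 (SE 0.37, adjusted p = 9.2e-05), with 1 day 11 array inside the day 0 range. Col8a2, the second type VIII chain, was lower in Nos3-/- at day 11. Control arrays ran from 4.82 to 7.42 (median 6.66) and Nos3-/- arrays from 4.24 to 5.11 (median 4.71), so that 8 of 9 control arrays lay above every Nos3-/- array. The difference was -1.73 (SE 0.41, 3.31-fold lower, adjusted p = 0.00516), and at day 0 it was -0.44 (SE 0.40, adjusted p = 0.492). Col10a1, of hypertrophic cartilage, fell by 0.63 in control over time.

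**Figure D3:**
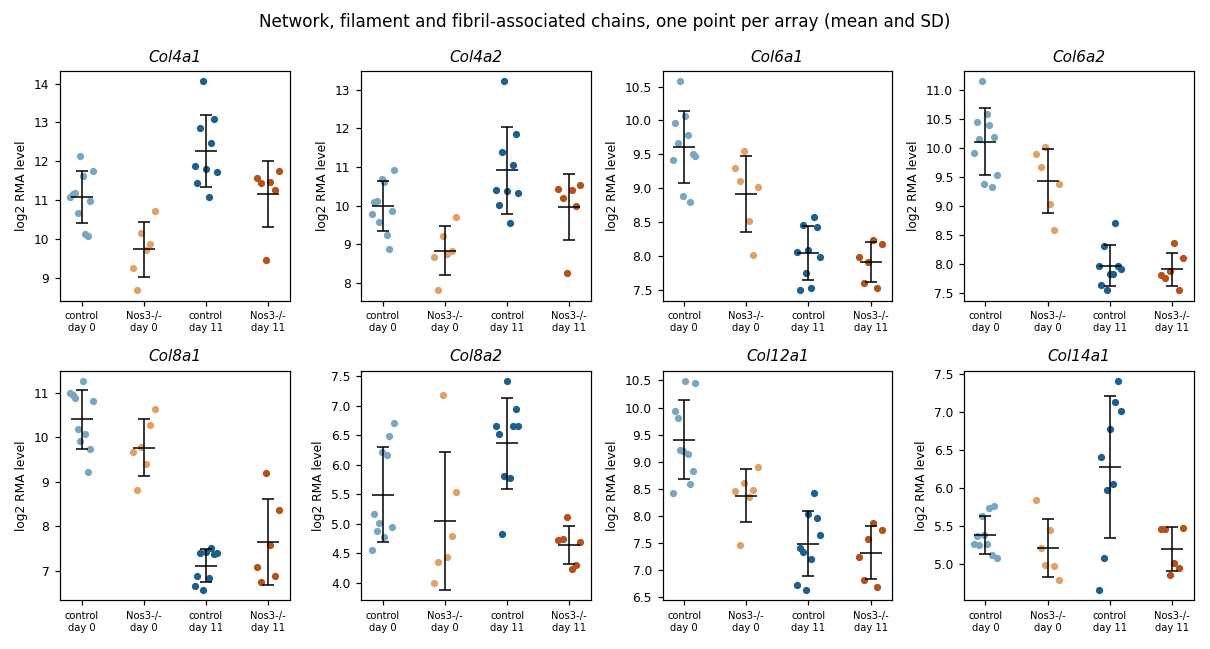
Log2 level of 8 chains of types IV, VI, VIII, XII and XIV on each array (points) with group mean and SD, in control and Nos3-/- at day 0 and day 11. Col6a1, Col6a2 and Col8a1 are lower at day 11 in both genotypes, Col4a1 is higher at day 11, and at day 11 Col8a2 is higher on 8 of 9 control arrays, and Col14a1 on 7 of 9, than on any Nos3-/- array.

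Fibril-associated collagens bind to the surface of fibrils. Col12a1, found on type I fibrils, was lower by -1.03 (SE 0.30, adjusted p = 0.0189) at day 0, from 9.41 ± 0.73 in control to 8.37 ± 0.49. At day 11 its difference was -0.17 (95% interval -0.80 to 0.46). It fell over time by 1.92 in control and 1.05 in Nos3-/-. Col14a1, also on type I fibrils, was lower at day 11 by -1.07 (SE 0.29, adjusted p = 0.0133), with control at 4.66 to 7.41 (median 6.41) and Nos3-/- at 4.86 to 5.47 (median 5.24). Control arrays were spread widely, and 7 of 9 lay above every Nos3-/- array. The other Col14a1 probe sets did not pass at day 11. They gave -0.26 (SE 0.09, limma adjusted p = 0.0833) and -0.008 (SE 0.08, limma adjusted p = 0.974).

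Col9a3, a chain of type IX collagen of cartilage, was lower at day 0 by -0.44 (SE 0.10, adjusted p = 0.00412). It fell over time by 0.53 in control (SE 0.09, adjusted p = 3.81e-05) and changed by 0.17 (SE 0.12, adjusted p = 0.262) in Nos3-/-. The difference between these, 0.70 (SE 0.15, adjusted p = 0.0163), passed. Col16a1 fell in both genotypes (by 0.91 and by 0.53). Col20a1 rose by 0.21 and 0.30, and Col9a1 by 0.31 in control. Col9a2, Col19a1 and Col22a1 passed in no comparison.

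At the basement membrane zone, Col7a1, of the anchoring fibrils of skin, was lower by -0.69 (SE 0.20, adjusted p = 0.0164) at day 0 and fell over time by 1.06 in control. Col18a1, the source of endostatin, rose over time by 0.67 in Nos3-/- (SE 0.21, adjusted p = 0.016). Its difference at day 11 was 0.46 (adjusted p = 0.14), and it passed at 0.69 (adjusted p = 0.00347) without Nos3-/- replicate 3. Col15a1 fell by 0.19 in control and Col17a1, of hemidesmosomes, by 0.62 in Nos3-/-, both from levels in the lower tertile of all genes.

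Among membrane-spanning chains, Col23a1 was lower at day 0 by -1.22 (SE 0.34, adjusted p = 0.0156), with control at 5.52 to 7.76 (median 7.5) and Nos3-/- at 5.36 to 6.94 (median 5.72). Its highest Nos3-/- array was replicate 3. Col13a1 rose over time by 1.13 in control (SE 0.16, adjusted p = 2e-06) and by 0.88 in Nos3-/- (SE 0.20, adjusted p = 0.00147). Every control day 11 array (5.58 to 6.83) lay above every control day 0 array (5.05 to 5.57). Col26a1 rose by 0.77 in Nos3-/-.

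Of the 42 genes, 12 passed in no comparison (Col4a2, Col4a3, Col4a4, Col4a5, Col6a4, Col6a5, Col9a2, Col11a2, Col19a1, Col22a1, Col24a1 and Col25a1). Of these, 9 lay in the lower tertile of mean level over all genes, against 17 of all 42. Their changes between groups ran from -1.15 to 1.14. This holds for the probe sets used and the fit of all arrays. Col4a2 passed at day 0 in the fit of the day 0 arrays alone (-1.15, SE 0.30, adjusted p = 0.0227), and another probe set of Col22a1 rose over time by 0.51 in control (SE 0.12, adjusted p = 0.00099) and by 0.64 in Nos3-/- (SE 0.15, adjusted p = 0.00153).

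Pairs of chains were compared array by array within each group, over 8 pairs and 4 groups. The chains of a pair share a molecule or a fibril, except Col1a1 and Col4a1, the contrast. Permutation p-values of the 32 relations were adjusted together, and 10 relations passed for both r and rho. Col4a1 and Col4a2 followed each other closely in every group. Pearson's r was 0.960 in control day 0 (n = 10, permutation p = 4e-05, adjusted 0.00032, rho 0.976), and 0.975 in Nos3-/- day 0 (n = 6, exact p = 0.00417, adjusted 0.0148, rho 1.0). It was 0.995 in control day 11 (n = 9, exact p = 2.76e-06, adjusted 8.82e-05, rho 1.0) and 0.996 in Nos3-/- day 11 (n = 6, exact p = 0.00139, adjusted 0.00635, rho 1.0). Without the 2 arrays farthest from the median of Col4a1, r was 0.962, 0.872, 0.997 and 0.942 in the same order.

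Col6a1 and Col6a2 gave r of 0.958, 0.988, 0.815 and 0.915 in that order of groups, and all 4 passed for r and rho. Without the 2 farthest arrays these were 0.904, 0.928, 0.876 and 0.925. For Col5a1 and Col5a2, r was 0.976 in control day 0 (permutation p = 1e-05, the smallest these resamples can give, adjusted 0.000107), 0.790 in Nos3-/- day 0, 0.752 in control day 11 and 0.033 in Nos3-/- day 11, the last 3 without passing for r (rho passed in control day 11, 0.817, adjusted p = 0.0345). Col1a1 and Col1a2 gave 0.893, 0.697, 0.751 and 0.818, and passed in control day 0 for r and rho (adjusted p = 0.00237 and 0.000384).

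The remaining pairs of 1 molecule or fibril gave lower r in most groups. Some of these chains varied little within a group, and the part of their spread in r was not tested. The SD of Col4a6 was 0.13 in control and 0.04 in Nos3-/- at day 0. That of the Col9a1 probe set used ran from 0.10 to 0.23 in the 4 groups. Col2a1 and Col11a1 varied more, with SDs from 0.33 to 0.79 and from 0.33 to 0.87. For Col4a5 and Col4a6, r was -0.092, 0.232, 0.553 and 0.885, the last passing for r (exact p = 0.0139, adjusted 0.0404) but not for rho (0.771, adjusted 0.183). For Col2a1 and Col11a1 it was -0.167, 0.061, 0.129 and 0.494, and for Col2a1 and Col9a1 -0.432, 0.643, 0.443 and 0.608, with 0 of these 8 passing, before or after adjustment.

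Chains of different molecules served as the contrast. Col1a1 and Col4a1 gave r of 0.500, -0.149, 0.148 and 0.789, none passing for r, while rho passed in Nos3-/- day 11 (0.943, exact p = 0.0167, adjusted 0.041; r without the 2 farthest arrays 0.425). Whether the correlations differ between pairs or groups was not tested, and arrays of a group share their culture history, and the part of cell type mixture in these r was not tested.

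**Figure D4:**
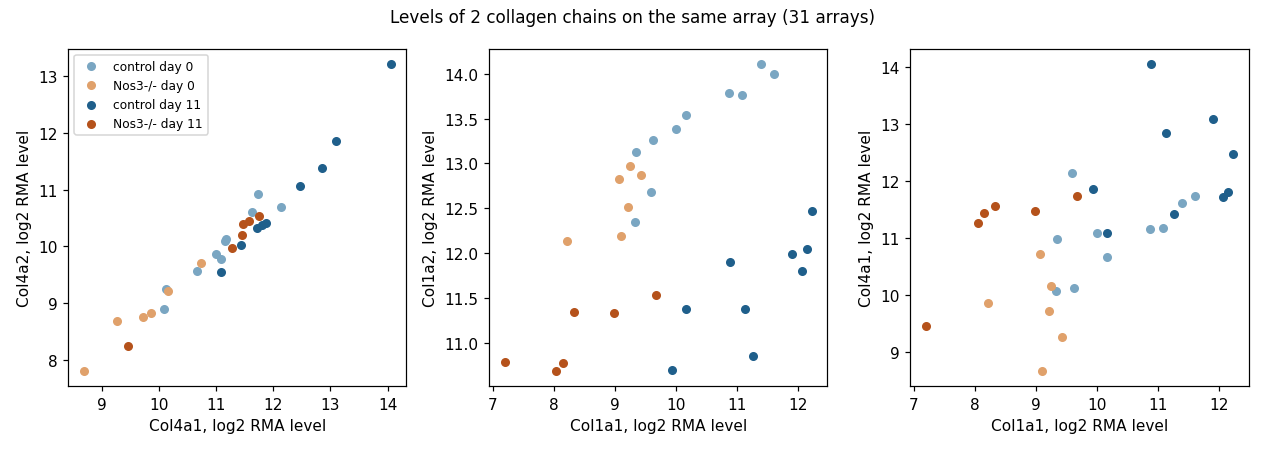
Log2 levels of 2 chains on the same array, 31 arrays, coloured by group: Col4a1 against Col4a2, Col1a1 against Col1a2, and Col1a1 against Col4a1. The Col4a1 and Col4a2 points lie along one line in all 4 groups (r of 0.960 or more), the Col1a1 and Col1a2 points form separate bands by day, and Col1a1 against Col4a1 shows no common line.

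Genes that make and shape collagen are given as counts, to be read beside the shares of all genes called (16.6% at day 0 and 9.7% at day 11). No list was tested. Of 19 genes for hydroxylation, folding and export, 4 were lower in Nos3-/- at day 0, and 1 was higher and 5 lower at day 11. The prolyl 4-hydroxylase subunit P4ha2 (-0.97, SE 0.28), the lysyl hydroxylase Plod2 (-0.95, SE 0.30) and the prolyl 3-hydroxylase P3h2 (-0.95, SE 0.26) were lower at day 11, with adjusted p of 0.0214, 0.0399 and 0.0142. Serpinh1, the collagen chaperone Hsp47, rose over time by 0.80 in control and 1.17 in Nos3-/-.

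Of 10 genes for procollagen cleavage and crosslinking, 4 were lower at day 0, and 1 was higher and 1 lower at day 11. Lox, the enzyme that crosslinks fibrils, went from 11.95 ± 0.75 to 6.82 ± 0.77 in control, a fall of 5.13 (SE 0.35, adjusted p = 2.05e-12). It fell by 2.81 in Nos3-/-, so that at day 11 it was higher there by 1.27 (SE 0.40, adjusted p = 0.0407). Adamts3, a procollagen N-proteinase, rose by 1.46 and 1.27 over time. Adamts3 was lower in Nos3-/- by -0.53 at day 0 and -0.73 at day 11.

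Of 12 fibril regulators, 1 was higher and 3 lower in Nos3-/- at day 11. Postn (periostin) was at 11.85 ± 0.96 in control and 8.09 ± 0.89 in Nos3-/-, a difference of -3.76 (SE 0.39, adjusted p = 3.66e-08). Lumican (Lum) differed by -3.23 and decorin (Dcn) by -1.55, while biglycan (Bgn) was higher by 1.24. Of 15 basement membrane partners, 2 were lower at day 0, and 1 was higher and 2 lower at day 11. The laminin chains Lama1 (-2.53, SE 0.72, adjusted p = 0.0197) and Lamb1 (-0.80, SE 0.24, adjusted p = 0.0271) were the lower ones, and both also stand in the parietal endoderm list. Of 9 collagen receptors, 1 was lower at day 0 (Mrc2) and 1 higher at day 11 (Ddr1, by 0.47).

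Probe sets of 1 gene could disagree. Of the collagen genes, 27 had several probe sets. Among called genes with several, a probe set with the opposite sign existed for 1 of 11 at day 0 (Col5a3), 0 of 6 at day 11, 5 of 13 over time in control (Col1a1, Col5a2, Col12a1, Col14a1 and Col20a1) and 4 of 13 over time in Nos3-/- (Col5a1, Col12a1, Col20a1 and Col26a1). Genes not called on the probe set used are left out of these counts. For Col4a6, the second probe set was lower in Nos3-/- at day 11 by -0.55 (SE 0.17, limma adjusted p = 0.0311). The case of Col9a1 was the widest. Its brighter probe set stood at 6.31, 6.41, 6.63 and 6.53 in control day 0, Nos3-/- day 0, control day 11 and Nos3-/- day 11.

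The second Col9a1 probe set stood at 4.38 ± 0.20, 4.33 ± 0.22, 8.06 ± 0.81 and 6.57 ± 1.56. Tested among all probe sets, it rose over time by 3.68 in control (SE 0.36, adjusted p = 3.44e-09) and by 2.24 in Nos3-/- (SE 0.45, adjusted p = 0.000465). It was lower in Nos3-/- at day 11 by -1.49 (SE 0.41, adjusted p = 0.0161). Col9a1 has 2 RefSeq starts 17593 bases apart, whose upstream sequences are printed above; which transcript each probe set reads was not tested. For Col25a1, the dimmer probe set rose by 0.89 in control (SE 0.21, adjusted p = 0.00117), while the probe set used changed by -0.07 (SE 0.07).

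**Figure D5:**
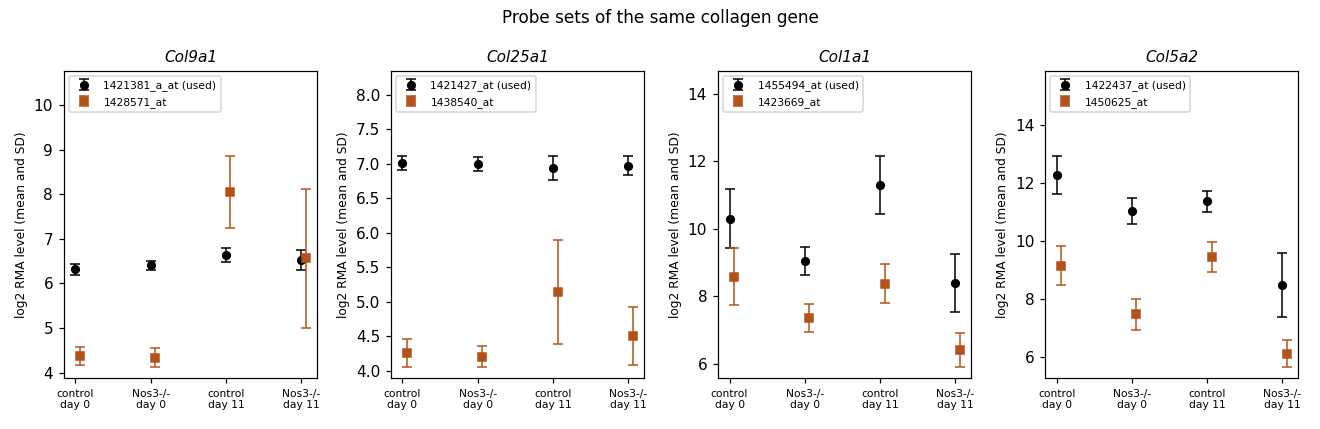
Mean log2 level with SD of each probe set of Col9a1, Col25a1, Col1a1 and Col5a2 in the 4 groups; circles are the probe set used and squares the other. For Col9a1 and Col25a1 the dimmer probe set rises at day 11 by more than the one used, and for Col1a1 and Col5a2 both probe sets are lower in Nos3-/- on both days.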

How the data were processed

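Total RNA of 31 samples was hybridised to 1-colour Affymetrix arrays. The deposited values are on the log2 scale and, per the submitters' processing notes, were made by the authors with RMA (background correction, quantile normalization and probe set summary). Its version was not given in the sources used here. Quantile normalization gives all arrays nearly the same distribution, so a shift shared by most genes would not be seen. Of 45101 probe sets, 34958 carried 1 symbol, 932 several and 9211 none, and the probe set with the highest mean stood for each of 18194 genes.

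A group-means model of all arrays was fitted with limma 3.58.1 in R 4.3.3 (27 residual and 2.80 prior degrees of freedom), with Benjamini-Hochberg adjustment over all genes. The fit was tested on simulated data. Correlations used scipy 1.17.1 with exact permutations or 100000 resamples. Genes named from other lists were up to 3 with the highest and 3 with the lowest passing changes per list. The members and lists were chosen with earlier results of these data known. Alternatives were another filter on dim genes, the probe set rule, array weights, centring, the replicate number as a block, the arrays compared only, the fibroblast mean as a covariate and each array left out. Promoter sequences are RefSeq's, GRCm38.p6.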

Additional observations from a re-analysis of the deposited data

Results flagged for a closer look

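In 8 of 168 groups of a collagen gene (4.76%), 1 array stood far from the others of its group by Dixon's criterion, and chance gives about 1 in 20. For Nos3-/- day 11 replicate 3, the lowest values were 9.46 for Col4a1 (next 11.27), 8.25 for Col4a2 (next 9.98), 6.44 for Col4a5 (next 7.93) and 9.37 for Col18a1 (next 10.56), all chains of basement membranes. This array also correlated least with its group. Nos3-/- day 0 replicate 3 was highest for Col2a1 (7.71, next 6.77) and Col23a1 (6.94, next 5.84), and Nos3-/- day 0 replicate 5 was lowest for Col1a1 (8.21, next 9.07). Control day 0 replicate 6 was highest for Col25a1 (7.27, next 7.08).

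The change from day 0 to day 11 differed between genotypes, by the limma interaction test, for Col5a3 (1.05, adjusted p = 0.0451) and Col9a3 (0.70, adjusted p = 0.0163). Both fell over time in control, and Col5a3 fell less in Nos3-/-.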

How the results depend on the processing

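With the fibroblast mean as a covariate, 0 collagen genes were lower at day 0. At day 11, 1 was lower and 2 were higher, and 15 of 42 estimates changed sign. Among these were the called or newly called Col12a1 (0.96), Col14a1 (0.16) and Col3a1 (0.38). The share of all genes called was not counted for the covariate fits or the other settings below. Averaging probe sets turned Col25a1 over time in control to 0.41, and leaving out probe sets marked _x or _s turned Col20a1 over time in Nos3-/- to -0.092. With the replicate number as a block, 7 were lower at day 0 and 1 was lower in the interaction; same-numbered arrays were not treated as pairs, since their correlations of deviations ran from -0.27 to 0.35 at day 0, -0.21 to 0.14 at day 11, -0.24 to 0.27 over time in control and -0.02 to 0.29 over time in Nos3-/-, where 3 of 6 arrays matched best with their own number. Higher genes at day 11 numbered 5 with array weights, 4 without the 3 arrays that stood apart and 2 with any probe set. Over time in control 3 were higher with a filter at the median level and 12 with array weights. Over time in Nos3-/- 5 were higher with a filter at the lower tertile, 3 at the median and 5 with the arrays compared only. The filters left 25 and 18 of the 42 collagen genes, so removal of genes by itself lowers these counts. Without a filter, 5 of the 25 genes above the lower tertile also rose in Nos3-/-. In the interaction 1 was higher with centring, with the median filter or with any probe set, and 0 with the mean of probe sets, while 1 was lower with the mean of probe sets or any probe set and 3 with array weights. Leaving out single arrays gave 6 to 15 lower and 0 to 1 higher at day 0, 6 to 8 and 0 to 3 at day 11, 12 to 13 and 6 to 10 over time in control, 10 to 12 and 8 to 9 over time in Nos3-/-, and 0 to 1 and 1 to 3 in the interaction. Calls were lost somewhere in these for 9 of 13, 2 of 8, 2 of 20, 1 of 19 and 1 of 2 genes. The option to keep any probe set and the removal of 3 arrays were chosen after seeing the data. Signal near the dim end limits the 17 genes of the lower tertile.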
